A study of Mus musculus with 23 samples.

Results

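MHC class I genes and the genes of the immunoproteasome were followed in the mouse pancreas during recovery from caerulein pancreatitis. They were taken as the rows of the count files with the symbols *H2-K1*, *H2-D1*, *H2-T23*, *B2m*, *Tap1*, *Tap2*, *Tapbp*, *Psmb8*, *Psmb9* and *Psmb10*. All 10 were present among the 18512 symbols of each file, and all 10 were among the 12500 genes with enough counts to be tested. The choice used no measured value. RNA-seq had been performed on the head of the pancreas of 23 C57BL/6 mice from Charles River Laboratories, aged 6 to 8 weeks and weighing 20 to 25 g. The baseline group held 8 non-injured mice, 4 of each sex. Mice of the other groups had received caerulein, a cholecystokinin analog that overstimulates the acinar cells, intraperitoneally at 50 µg/kg in 8 hourly injections on each of 2 consecutive days. Of these, 8 (again 4 of each sex) were examined at day 7, and 3 females with 4 males at day 14. The tissue was not sorted, so the libraries also held RNA of vessels, fat, connective tissue and lymphoid tissue. Whether the lymphoid tissue lay inside the gland or was taken along from beside it cannot be told from the data. In such bulk samples, more cells of a type and more RNA per cell cannot be told apart.

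MHC class I molecules show peptides from inside the cell to CD8+ T cells and NK cells. The peptides are cut by the proteasome, whose constitutive catalytic subunits can be replaced by 3 interferon-inducible ones to give the immunoproteasome. The TAP transporter moves the peptides into the endoplasmic reticulum, where tapasin helps to load them on the heavy chain bound to β2-microglobulin. Nearly all nucleated cells carry class I. Lymphocytes, dendritic cells and macrophages carry much of it, together with the immunoproteasome.

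The libraries held 7059890 to 9567446 counts each. The 10 acinar genes used as a check of the tissue (digestive enzymes and *Sycn*) had summed counts per 1000000 (CPM) of 226260 to 568690. CPM were scaled between libraries by TMM factors of 0.767 to 1.41, so these sums are not shares of a library's counts. Lymphoid genes were spread very unevenly over the mice. The mean log2 CPM of 5 genes of lymph node stroma (*Ccl21a*, *Ccl19*, *Cxcl13*, *Glycam1*, *Madcam1*) lay between 1.53 and 3.38 in 5 mice (baseline mouse 5, day 7 mice 10 and 15, day 14 mice 19 and 21) and between -1.68 and -0.06 in the other 18. The mean of 7 B and plasma cell genes was above 1 in the same 5 mice and in 3 more (baseline mouse 4, day 7 mice 12 and 14). These 8 mice made up 2 of 8 at baseline, 4 of 8 at day 7 and 2 of 7 at day 14, and the results at day 7 are given with and without them.

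Of the 10 genes, 8 lie on chromosome 17 (GRCm38, GENCODE vM21). *Psmb9* (chr17:34181987-34187764, minus strand), *Tap1* (chr17:34187553-34197225), *Psmb8* (chr17:34197721-34201454) and *Tap2* (chr17:34203527-34216321) lie side by side in the class II region. The models of *Psmb9* and *Tap1* overlap on opposite strands, so that fragments of the overlap may have been counted for either or left out. *Tapbp* (chr17:33915899-33929292) and *H2-K1* (chr17:33996017-34000347, minus strand) lie at lower coordinates, and *H2-D1* (chr17:35262730-35267499) and *H2-T23* (chr17:36029773-36032855, minus strand) at higher ones. *B2m* (chr2:122147686-122153083) and *Psmb10* (chr8:105935735-105938444, minus strand) lie apart from the others. Of the 75-base windows of each gene's transcripts, 96.9% in *H2-K1*, 94.6% in *H2-D1* and 94.1% in *H2-T23* occurred in no other gene, against 98.9% in *Tapbp* and every window in the other 6. The files also listed *H2-L*, a heavy chain gene that C57BL/6 mice are known to lack and that GENCODE vM21 does not hold. It had 62.8 to 69.6 counts for every 100 of *H2-D1* in all 23 mice (SD 1.91), whereas *H2-K1* had 93.0 to 131. The absolute level of *H2-D1* is therefore uncertain. The study counted only fragments that mapped uniquely, and how fragments common to these names were treated is not given further in the sources used here.

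The sequences before the start of *H2-K1* and *B2m* are shown because these genes varied together across the mice and because each window holds a stretch shared with another member or with interferon-induced genes. They were taken from RefSeq promoters for GRCm38, on the strand of the gene. In *H2-K1* (chr17:34000348-34000547, minus strand, 200 bases) the capitals mark a run of 47 bases that also occurs before *H2-D1*, starting at -141 in *H2-K1* and at -201 in *H2-D1*. No other gene of the 27025 with a promoter window held this run. In *B2m* (chr2:122147487-122147685, plus strand, 199 bases) the capitals mark the core of an interferon-stimulated response element, an element of interferon-induced genes.
H2-K1 upstream: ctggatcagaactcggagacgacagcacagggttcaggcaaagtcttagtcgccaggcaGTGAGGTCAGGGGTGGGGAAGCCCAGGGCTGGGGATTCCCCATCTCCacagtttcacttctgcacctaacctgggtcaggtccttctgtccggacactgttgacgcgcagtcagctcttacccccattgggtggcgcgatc
B2m upstream: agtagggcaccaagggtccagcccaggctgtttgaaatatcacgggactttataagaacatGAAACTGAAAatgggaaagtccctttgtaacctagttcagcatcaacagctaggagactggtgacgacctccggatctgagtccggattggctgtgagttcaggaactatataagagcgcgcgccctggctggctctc
Of the 10 genes, 9 had a promoter window from 250 bases before to 50 bases after the start (*Tap2* had none). The core of the interferon-stimulated response element (GAAANNGAAA, either strand) was found in 2 of the 9, at -139 in *B2m* and at -124 in *H2-T23*, and in 3.99% of all genes. The interferon-gamma activated site (TTCNNNGAA) was found in 1 of the 9, at -97 in *Psmb8*, and in 9.55% of all genes. The NF-kB consensus, written as GGGRNNYYCC (R for A or G, Y for C or T), was found in 3 of the 9 and in 9.55% of all genes. It was chosen after the sequences were seen, so its share among the members is only a description. The NF-kB pattern lay at -126 in *B2m* and, inside the shared run, at -111 in *H2-K1* and at -171 in *H2-D1*. In the last 2 it had a second match shifted by 1 base. TGACGTCA, the cyclic AMP response element (2.03%), was found in none of the 9. Matches to different motifs did not overlap. Only these exact patterns were searched, so an element with other letters would be missed in any gene, including *H2-K1*. These are matches of letters and not measured binding.

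Transcript levels per length spanned a wide range at baseline (median CPM per kilobase of exon, 8 mice). *Psmb10* was highest at 41.4, followed by *B2m* at 36.5, *H2-D1* at 24.1 and *H2-K1* at 21.5. *Tapbp* stood at 4.80, *Tap2* at 2.09, *H2-T23* at 1.77, *Tap1* at 0.707, *Psmb8* at 0.596 and *Psmb9* at 0.287. Each member overlapped with the next one in this order of members in its range over the mice, except *H2-K1* and *Tapbp*. The constitutive subunits lay at 21.1 (*Psmb5*), 15.9 (*Psmb6*) and 7.92 (*Psmb7*). Thus 2 of the 3 immunoproteasome subunits were the lowest members on this scale, and *Psmb10* was the highest. The length used was that of all annotated exons together, 3381 bases for *Psmb8*, 3660 for *Psmb9* and 5476 for *Tap1* against 860 for *B2m*. This can exceed the length of the main transcript, so the order of genes with close values may follow the annotation. In median CPM without length, *Psmb9* (1.05) and *Psmb8* (2.01) were also the lowest members and *Psmb10* (70.7) the highest under the symbols as listed. Per kilobase at day 7, *B2m* (93.3) stood first, ahead of *Psmb10* (38.8), *H2-D1* (37.5) and *H2-K1* (34.6). At day 14 *B2m* (44.6) and *Psmb10* (44.5) were level. The place of *H2-D1* in these orders is uncertain, because *H2-L* held 62.8 to 69.6 counts for every 100 of *H2-D1*. If those are fragments of *H2-D1*, *Psmb10* may not be the highest member at baseline.

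To learn whether class I expression still differed from baseline 1 week after the injury, each gene was compared between day 7 and baseline. *B2m*, the light chain of every class I molecule, was the member that rose. At baseline it stood at 19.5 CPM in the lowest mouse, 31.4 in the median and 75.3 in the highest, and at day 7 at 39.9, 80.3 and 175. Of the 8 day 7 mice, 4 lay above every baseline mouse and the others lay inside the baseline range. The fold change was 2.32 (log2 1.21, SE 0.38, adjusted p = 0.0313 by edgeR's quasi-likelihood test). *B2m* was thus 1 of 10 members past an adjusted p of 0.05 and 1 of 10 that also met a fold change of 1.5, the rule for a differentially expressed gene (DEG). Over all genes tested, 8.5% were past the threshold and higher at day 7, and 3.75% were DEGs and higher. Before adjustment, 3 members had a p below 0.05.

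The call of *B2m* was close to the threshold. Its adjusted p was 0.0858 without day 7 mouse 10, 0.0773 without day 7 mouse 15, and 0.0558 to 0.0642 without any of baseline mice 1, 2, 3, 6, 7 and 8, so that no member passed in these 8 cases. It was 0.0600 in a fit of the 16 mice compared. Leaving out each of the other 15 mice in turn kept it past the threshold (0.0128 at the lowest), and the log2 fold change stayed between 0.96 and 1.46. Of the 2 mice named first, both were among those high in lymph node genes, and mouse 10 held the highest *B2m* of all.

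**Figure D1:**
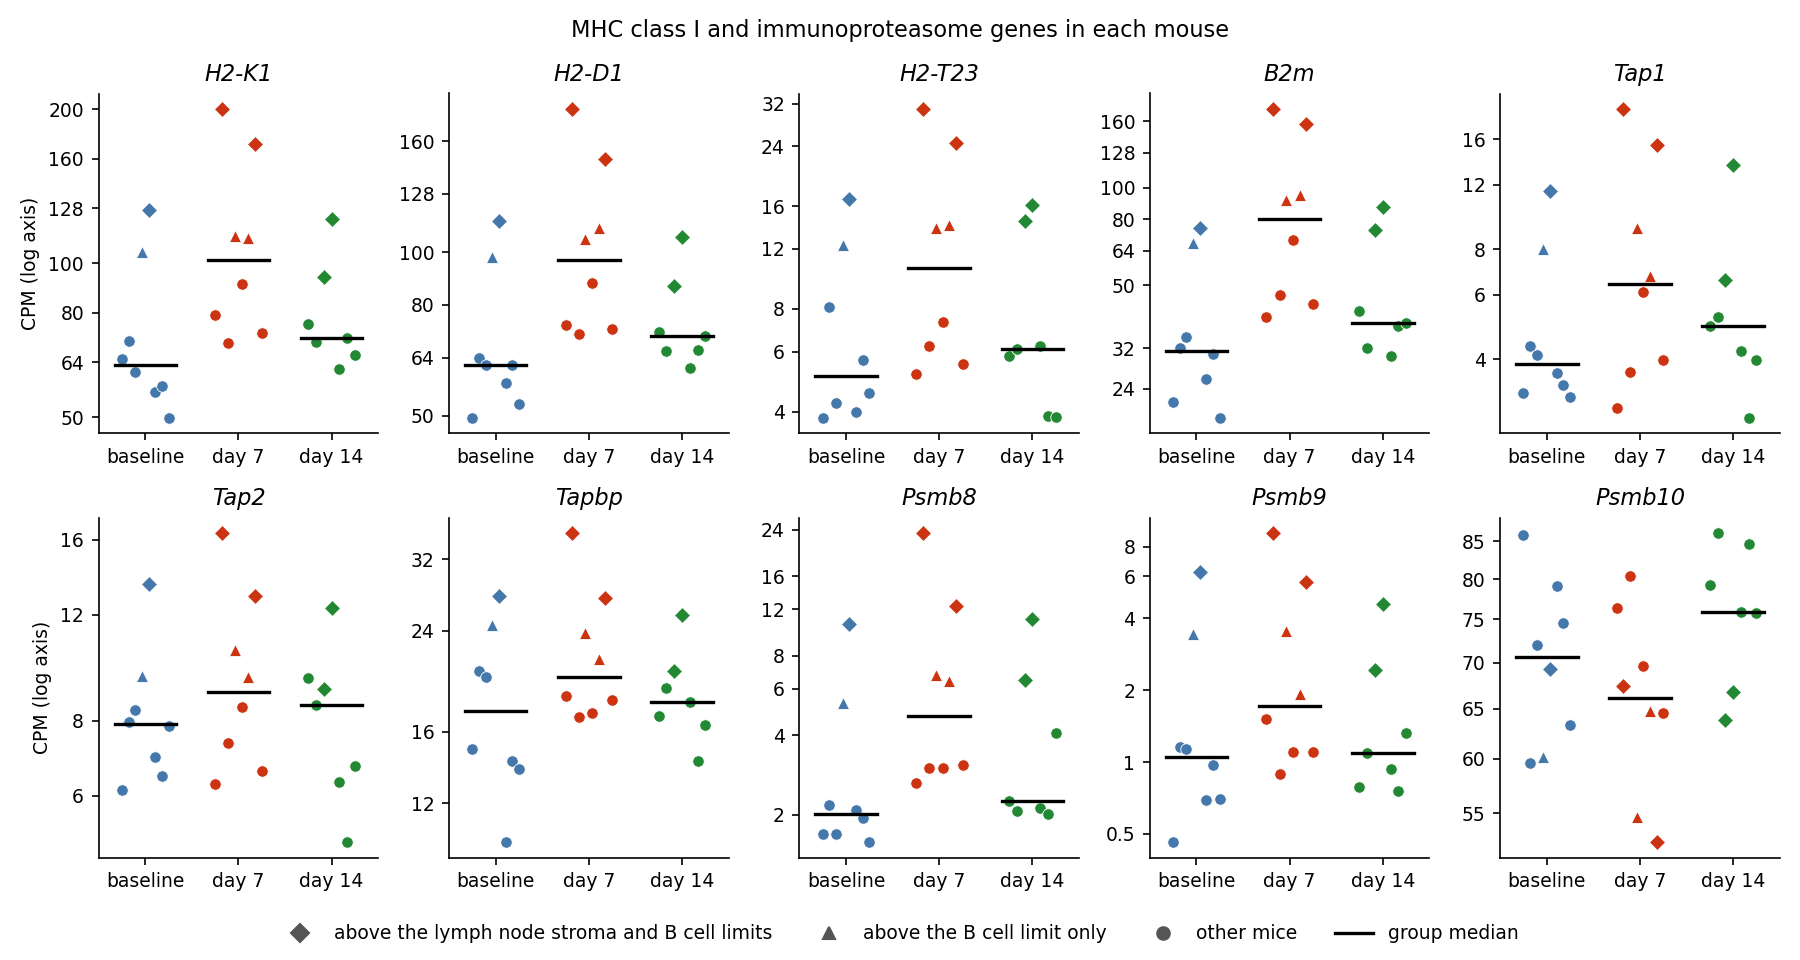
CPM of the 10 genes in each mouse on a log axis, by time point, with the group median as a line. Diamonds mark the 5 mice high in lymph node stroma and B cell genes, triangles the 3 high in B cell genes only, and circles the other 15. The marked mice are at the top of their group for all genes but *Psmb10*, with *Tap2* at day 14 as a further exception.

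The classical heavy chains *H2-K1* and *H2-D1*, which bind the peptide, moved by about the same amount at day 7 and missed the threshold. *H2-K1* stood at 49.9, 63.2 and 127 CPM (lowest, median and highest mouse) at baseline and at 69.8, 102 and 200 at day 7. Its log2 fold change was 0.61 (SE 0.25, adjusted p = 0.0951, edgeR). For *H2-D1* the values were 49.6, 62.0 and 114 at baseline and 70.6, 96.7 and 183 at day 7. Its log2 fold change was 0.60 (SE 0.22, adjusted p = 0.0671, edgeR). With DESeq2 *H2-D1* passed (adjusted p = 0.0438) together with *B2m* (0.00946), where 5.79% of 18269 genes were past the threshold and higher. That share is over genes without edgeR's filter on low counts, so it cannot be set beside the 8.5% of edgeR's 12500 genes. In *H2-K1* and *H2-D1*, 2 of the 8 day 7 mice exceeded every baseline mouse, and these were mice 10 and 15. *H2-T23*, which encodes Qa-1, the ligand of the NK cell receptor CD94/NKG2A, ranged from 3.84 to 16.8 CPM at baseline (median 5.10) and from 5.17 to 30.9 at day 7 (median 10.6). Its log2 fold change of 0.83 had an SE of 0.46 (adjusted p = 0.229).

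No gene of peptide transport and loading passed at day 7 with edgeR or DESeq2, and none had an unadjusted p below 0.05. *Tap1*, a subunit of the peptide transporter, ranged from 3.14 to 11.5 CPM at baseline (median 3.87) and from 2.94 to 19.4 at day 7 (median 6.43). The lowest day 7 mouse lay below every baseline mouse and 2 lay above. *Tap2*, its partner in the transporter, had medians of 7.91 and 8.94 CPM. *Tapbp*, which encodes tapasin, had medians of 17.4 and 20.0. The log2 fold changes were 0.69 (*Tap1*), 0.22 (*Tap2*) and 0.29 (*Tapbp*), with adjusted p-values of 0.291, 0.504 and 0.309.

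None of the 3 immunoproteasome subunits passed at day 7 with edgeR or DESeq2, and none had an unadjusted p below 0.05. *Psmb8*, which takes the place of *Psmb5*, ranged from 1.57 to 10.6 CPM at baseline (median 2.01) and from 2.63 to 23.3 at day 7 (median 4.74). Its log2 fold change of 1.14 was close to that of *B2m*, but the SE was 0.58 and the adjusted p 0.182. Leaving out 1 mouse moved it between 0.56 and 1.69 (adjusted p 0.0479 to 0.506), and it passed without baseline mouse 5. *Psmb9*, which takes the place of *Psmb6*, ranged from 0.461 to 6.26 CPM at baseline (3 to 51 counts) and from 0.892 to 9.09 at day 7 (8 to 122 counts), with a log2 fold change of 0.71 (SE 0.61, adjusted p = 0.447; 0.20 to 1.35 when 1 mouse was left out). *Psmb10*, which takes the place of *Psmb7*, stood at 59.6, 70.7 and 85.9 CPM at baseline and at 52.5, 66.1 and 80.4 at day 7. Its log2 fold change was -0.09 (SE 0.09, adjusted p = 0.519). The next gene along its strand, 1872 bases away, is *Ctrl*, a chymotrypsin-like enzyme of acinar cells, which fell (log2 -0.75, SE 0.10, adjusted p = 5.08e-06).

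**Figure D2:**
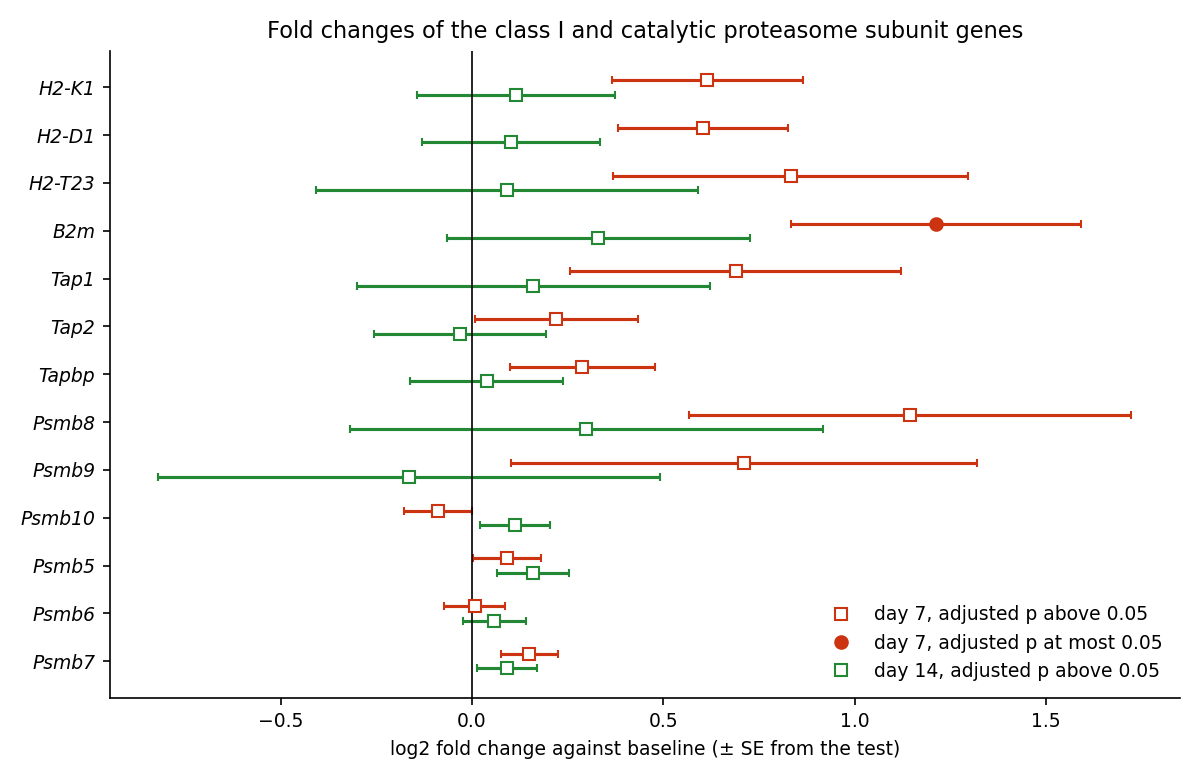
Log2 fold change against baseline (± SE derived from edgeR's test) of the 10 genes and the 3 constitutive catalytic subunits at day 7 (red) and day 14 (green). *B2m* at day 7 is the only filled symbol, and the intervals of *Psmb8* and *Psmb9* are the widest.

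Most of the spread of these genes lay between mice of the same group. The group explained 35.8% of the spread of log2 CPM over the 23 mice for *B2m*, 29.1% for *H2-D1* and 25.1% for *H2-K1*, and 6.15% to 17.8% for the others, against a median of 13.6% over all genes tested. The SD within groups was 1.04 (log2) for *Psmb9*, 0.99 for *Psmb8*, 0.86 for *H2-T23*, 0.78 for *Tap1* and 0.72 for *B2m*, and the median of all genes was 0.23. For *Psmb10* it was 0.19. The scatter within groups followed the lymphoid genes. In the 8 mice high in B cell genes the summed CPM of the 7 B and plasma cell genes was 18.2 to 135, that of 12 T and NK cell genes 4.64 to 63.9 and that of 10 pan-leukocyte genes 107 to 474. In the other 15 mice these sums were 0.0 to 29.6, 0.349 to 2.01 and 37.0 to 77.9. Within each of the 3 groups, all mice high in B cell genes lay above all others for 8 of the 10 members. The exceptions were *Tap2*, for which this held at baseline and day 7 only, and *Psmb10*, for which it held in no group. Of all genes tested, 2.62% met this rule in the 3 groups. At day 7, for example, *Psmb8* was 6.40 to 23.3 CPM in the 4 mice high in B cell genes and 2.63 to 3.09 in the other 4. The lymphoid lists themselves did not pass at day 7. None of 10 pan-leukocyte (median log2 fold change 1.06), 7 B and plasma cell (0.96), 5 tested T and NK cell (1.71) and 3 tested lymph node stroma genes (1.36) was past the threshold with edgeR, nor any of the 23 of these lists to which DESeq2 gave an adjusted p, and none had an unadjusted p below 0.05 with edgeR.

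**Figure D3:**
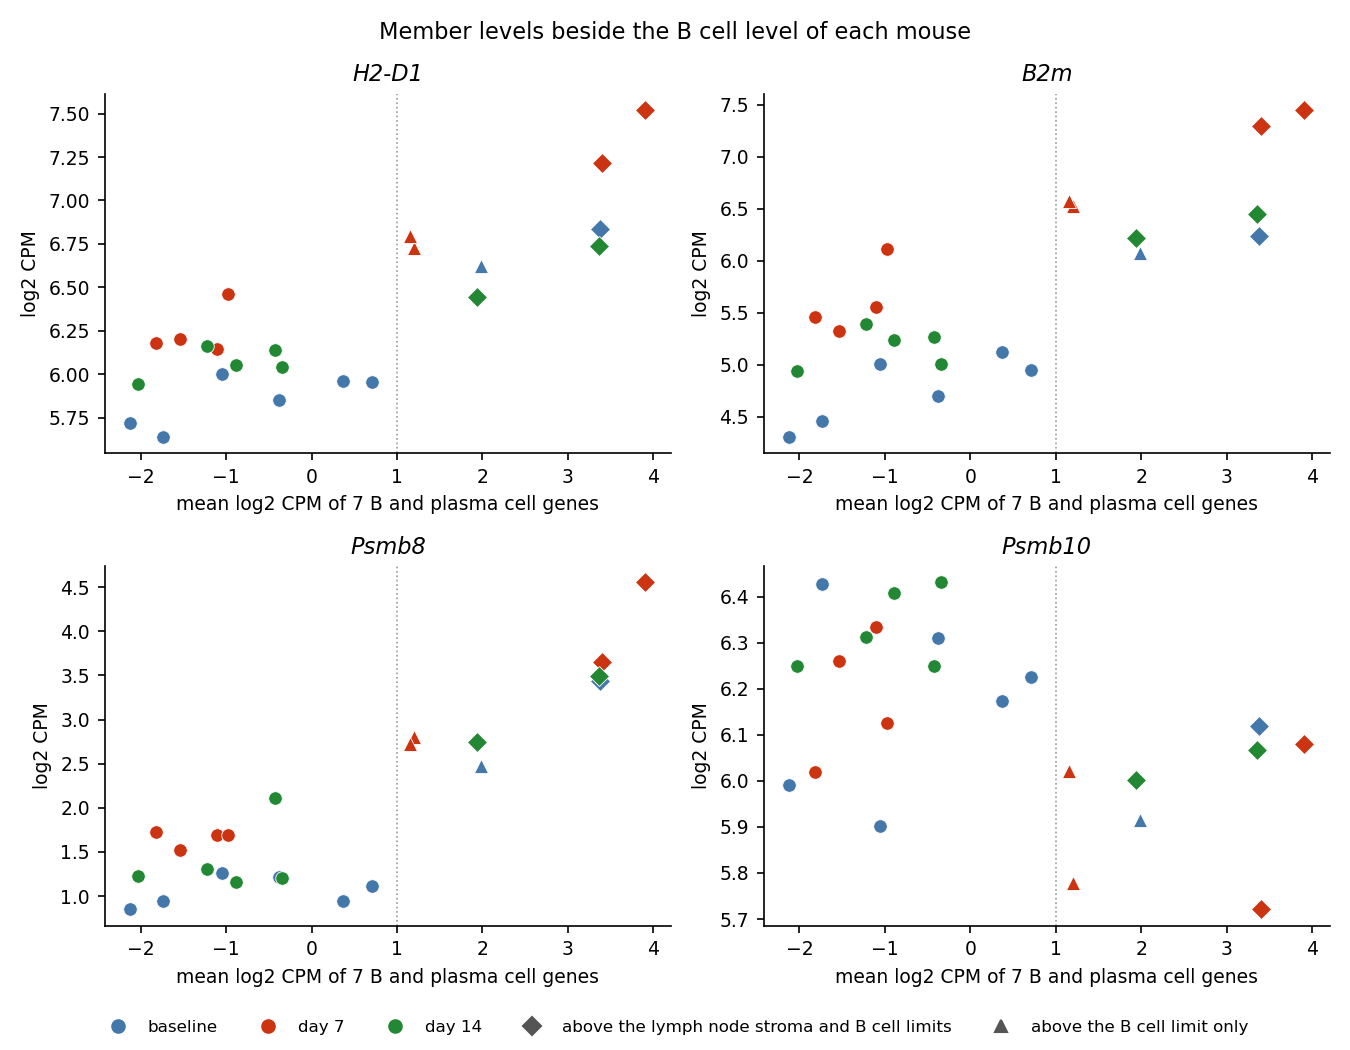
Log2 CPM of *H2-D1*, *B2m*, *Psmb8* and *Psmb10* against the mean log2 CPM of 7 B and plasma cell genes in each mouse, colored by time point, with the limit of 1 as a dotted line. The first 3 genes are higher to the right of the line, where day 7 mice still lie above the others for *B2m*, and *Psmb10* is not.

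The fold changes were smaller without the lymphoid-rich mice, and some calls were gained. Without the 5 mice high in lymph node stroma genes (7 baseline, 6 day 7 and 5 day 14 mice left), *B2m* had a log2 fold change of 0.96 (adjusted p = 0.0404, edgeR) and was the member that passed, where 7.01% of all genes were past the threshold and higher. Without all 8 mice high in B cell genes (6, 4 and 5 mice left), 3 of the 9 members that could be tested passed, where 5.63% of all genes did so in the higher direction. These were *B2m* (log2 0.84, adjusted p = 0.0150), *H2-D1* (0.38, 0.000755) and *H2-K1* (0.38, 0.00190). *Psmb9* had too few counts to be tested in these mice. With the mean level of the B cell and T cell genes as a covariate in all 23 mice, 5 members passed, where 10.8% of all genes were past the threshold and higher. They were *B2m* (log2 0.93, adjusted p = 5.05e-06), *H2-D1* (0.43, 1.67e-06), *H2-K1* (0.42, 5.90e-05), *Psmb8* (0.67, 0.000811) and *H2-T23* (0.45, 0.0285). *Tap1* (0.32, 0.0835), *Tap2*, *Tapbp*, *Psmb9* and *Psmb10* did not. These sets of mice and the covariate were chosen after seeing the data. The 8 mice high in B cell genes lay above all others of their group for 8 of the 10 members. Leaving them out therefore also cut the spread within groups, and the covariate took up spread that members shared with the lymphoid genes. The adjusted p-values of these fits are therefore only a description.

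In the 15 mice left without those high in B cell genes, 3 members did not overlap between baseline and day 7. The mice left out, chosen after seeing the data, were the highest of their group for these 3 genes. *B2m* lay at 19.5 to 34.6 CPM in the 6 baseline mice and at 39.9 to 68.8 in the 4 day 7 mice. *H2-D1* lay at 49.6 to 63.9 and at 70.6 to 87.8, and *Psmb8* at 1.57 to 2.17 and at 2.63 to 3.09. For these 3 of 10 every day 7 mouse was above every baseline mouse, which held for 3.97% of all genes tested. The 2 baseline mice left out lay at 67.3 and 75.3 CPM (*B2m*), 98.2 and 114 (*H2-D1*) and 5.31 and 10.6 (*Psmb8*). With them, each of these genes overlapped between the groups, so the separation is a description. *Psmb8* had 9 to 15 counts at baseline and 26 to 30 at day 7 in the 15 mice, and did not pass there (adjusted p = 0.0754, edgeR). In the same mice *H2-K1* overlapped by a small margin (49.9 to 70.5 and 69.8 to 91.3). *Tap2* lay at 6.15 to 8.33 and at 6.28 to 8.43 CPM, so that its groups coincided. In the same comparison, 9 of 10 macrophage genes passed as higher at day 7, and 9 of 10 did so in all 23 mice. Over all mice, the summed CPM of the 10 macrophage genes spanned 44.7 to 133 (baseline), 84.5 to 179 (day 7) and 64.6 to 108 (day 14). Macrophages carry class I and the immunoproteasome, and their part in the fold changes was not tested.

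**Figure D4:**
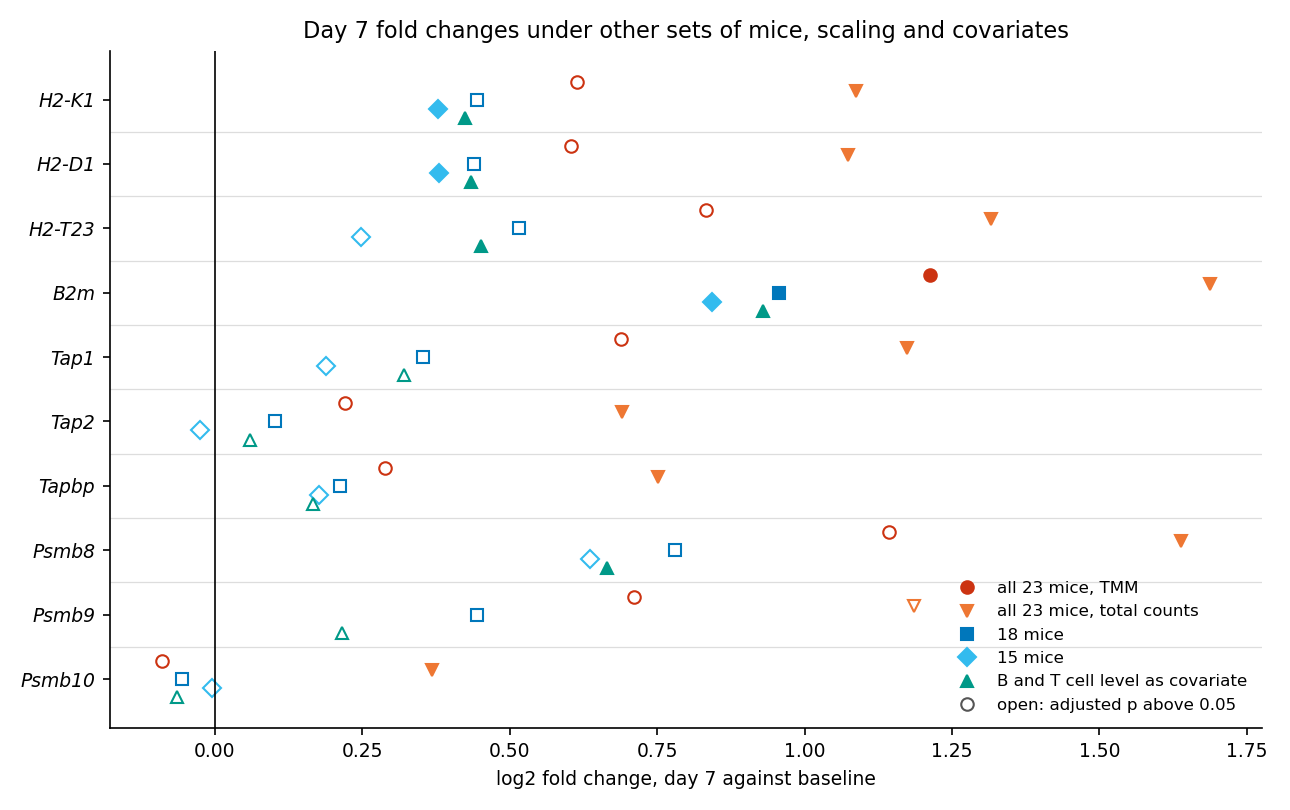
Log2 fold change of each gene at day 7 against baseline in all 23 mice with TMM scaling, in all mice scaled by total counts, without the 5 mice high in lymph node stroma genes (18 mice), without the 8 mice high in B cell genes (15 mice) and with the B and T cell level as a covariate, with filled symbols at an adjusted p of at most 0.05. *B2m* is filled under each of the 5, and *Psmb10* lies near 0 except under total counts.

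The 20 most abundant genes took 66.4% to 71.2% of the counts at baseline and 55.3% to 62.8% at day 7, so that scaling by totals differs from TMM. When libraries were scaled by their totals, the median log2 fold change of all genes moved from 0.02 to 0.48 at day 7, and 75.1% of all genes were past the threshold and higher. On that scale 9 of 10 members passed (all but *Psmb9*), 8 as DEGs (30.5% of all genes were DEGs and higher), and *Psmb10* turned to 0.37 (adjusted p = 0.000281). Relative to the median of all genes, *Psmb10* was lower at day 7 and the other 9 higher on both scales. With total counts that left out the 20 most abundant genes, *B2m* alone passed. Of all genes, 3.25% were DEGs and higher in a fit of the mice compared, 3.16% without the 8 mice high in B cell genes and 4.2% with the covariate. With DESeq2 it was 2.92%, over 18269 genes without the filter on low counts.

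By day 14 no member differed from baseline in edgeR's test. The log2 fold changes lay between -0.16 (*Psmb9*) and 0.33 (*B2m*), with a median of 0.11 against 0.01 over all genes. None of the 10 had an unadjusted p below 0.05, none passed with DESeq2, and the smallest adjusted p was 0.677 (*Psmb10*). Over all genes, 1.49% passed. *B2m* stood at 30.4, 38.3 and 87.1 CPM in the lowest, median and highest of 7 mice (log2 0.33, SE 0.40, adjusted p = 0.814). Of these 7 mice, 1 (mouse 21, high in lymph node genes) lay above the baseline range. Between day 7 and day 14 the log2 difference was negative for 9 of the 10 (-0.88 for *B2m*, adjusted p = 0.311) and 0.20 for *Psmb10* (adjusted p = 0.321). None passed with edgeR or DESeq2, 3 had an unadjusted p below 0.05 (*B2m*, *H2-D1* and *Psmb10*), and 1.22% of all genes passed. With the B and T cell level as a covariate 3 members passed as lower at day 14, *B2m*, *H2-D1* and *H2-K1*, where 0.967% of all genes did so. With total counts *B2m* and *H2-D1* did, where 32.1% of all genes were past the threshold and lower, and *Psmb10* passed as higher at day 14 than at baseline, where 24.2% of all genes passed in either direction.

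The sexes did not differ beyond their spread in any member. *B2m* had means of 38.9 CPM in females and 37.8 in males at baseline, 88.3 and 91.1 at day 7, and 49.3 and 48.3 at day 14. Log2 differences of males against females over all time points lay between -0.15 (*Tapbp*) and 0.08 (*Psmb8*). None of the 10 passed, with a smallest adjusted p of 0.888, none had an unadjusted p below 0.05, and none passed with DESeq2. Of all genes, 0.56% passed. The change over time did not differ between the sexes either (interaction, smallest unadjusted p 0.575, none past the threshold with edgeR or DESeq2). That interaction was past the threshold for 0.0% of all genes with edgeR and, without the filter on low counts, 0.0979% of 18381 genes with DESeq2.

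To ask whether the immunoproteasome gained on the constitutive proteasome, the counts of each inducible subunit were set against those of the subunit it replaces in the same mouse. Such a ratio does not depend on how the libraries are scaled. *Psmb8* had 7.38, 10.3 and 56.4 counts for every 100 of *Psmb5* at baseline (lowest, median and highest mouse) and 11.1, 22.9 and 112 at day 7. The mean log2 ratio was -2.85 ± 1.01 (SD, n = 8) at baseline and -1.89 ± 1.25 (SD, n = 8) at day 7. The difference of 0.96 had an exact two-sided permutation p of 0.110, or 0.330 after adjustment over 6 tests. *Psmb9* had a median of 3.59 counts for every 100 of *Psmb6* at baseline and 5.95 at day 7, with a log2 difference of 0.74 (exact permutation p = 0.259, adjusted 0.517). *Psmb10* exceeded *Psmb7* in every mouse, with a median of 261 counts for every 100 at baseline and 221 at day 7. Its log2 ratio was 1.39 ± 0.21 (SD, n = 8) and 1.14 ± 0.20 (SD, n = 8), a difference of -0.25 (exact permutation p = 0.0294, adjusted 0.176). Without baseline mouse 2, the lowest of its group, the difference was -0.30 and the adjusted exact permutation p 0.0364, and without any other single mouse it did not pass (adjusted p up to 0.358). At day 14 the differences were 0.22, 0.02 and 0.01, with adjusted exact permutation p-values of 0.975 each. Of the *Psmb5* windows of 75 bases, 63.2% occur in that gene alone, so fragments of the others may be missing from its counts or stand under another name.

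**Figure D5:**
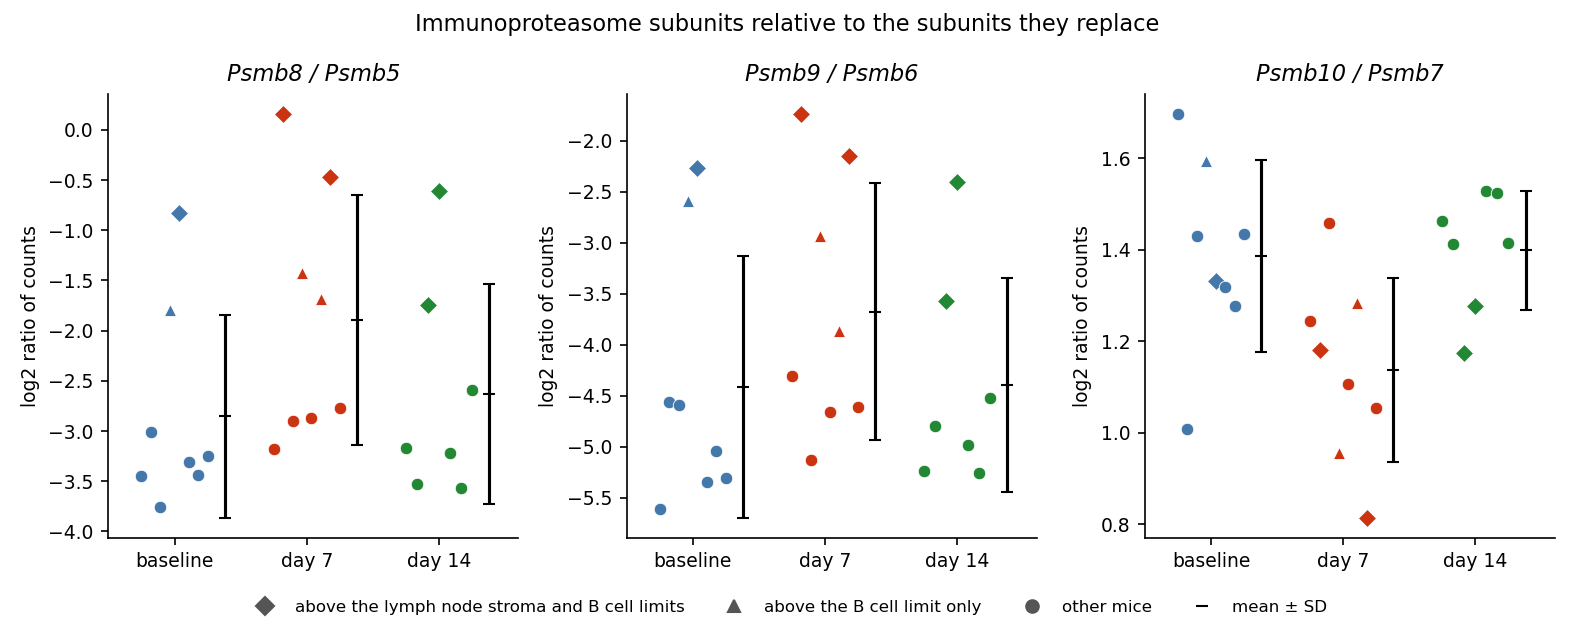
Log2 ratio of the counts of each immunoproteasome subunit to the constitutive subunit it replaces, per mouse, with the mean ± SD of each group. For *Psmb8* and *Psmb9* the mice high in B cell genes set the upper end in every group, and for *Psmb10* the day 7 mean is the lowest of the 3.

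Of the members, 9 moved together across the mice and *Psmb10* did not. After the mean of each group was removed, the log2 CPM of each gene was compared with the mean of the other 9 over 23 mice. Pearson's r was 0.88 (*Tapbp*) to 0.98 (*H2-D1*) for the 9 and -0.59 for *Psmb10*. The constitutive subunits had r of -0.48 (*Psmb5*), -0.48 (*Psmb6*) and -0.29 (*Psmb7*) with the mean of the members. Of 6 pairs taken for their place or function, 5 were positively correlated. *H2-K1* and *H2-D1*, which share the run of 47 bases, had r = 0.972 and Spearman's rho = 0.927. *B2m* and *H2-K1* had 0.956 and 0.913, *Psmb9* and *Tap1*, neighbors on opposite strands, 0.926 and 0.824, *Psmb8* and *Tap2* 0.863 and 0.790, and *Tap1* and *Tapbp* 0.858 and 0.858. For these 5 the p of r was 1e-05, the smallest that 100000 permutations within the groups can give (1.2e-05 adjusted over 6 pairs). Without the 2 mice farthest from the median, r was 0.954, 0.943, 0.890, 0.775 and 0.805. Without the 5 mice high in lymph node stroma genes (18 left), r was 0.907, 0.902, 0.766, 0.539 and 0.683, with adjusted permutation p-values of 0.00116 to 0.0249. *Psmb8* and *Psmb10* had r = -0.537 and rho = -0.622 (adjusted permutation p of r 0.0141), r = -0.728 without the 2 mice farthest from the median, -0.613 in the 18 mice, and -0.083 (adjusted p = 0.734) when libraries were scaled by total counts. This last relation therefore rests on the scaling. The negative r of *Psmb10* and of the constitutive subunits with the mean of members are given with TMM scaling only. Whether they also rest on the scaling was not tested.

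Among the 10 genes outside the list whose pattern was most like the mean of the members, by r of group-centered log2 CPM over the 23 mice, were *Ciita* (0.983), *H2-L* (0.978), *Nlrc5* (0.975), *Akap13* (0.974), *Ptprc* (0.974), *Serpina3g* (0.970), *Dock10* (0.970), *H2-Ab1* (0.968) and *Btla* (0.967). Of these genes, *Serpina3g* and *Btla* had low median CPM (0.201 and 0.653), where 3 counts in a library correspond to 0.314 to 0.425 CPM. The values of r are a description, since all genes of a mouse share a library.

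Around the members, other genes of the pathway were counted at day 7, where 8.5% of all genes passed in the higher and 9.49% in the lower direction. Of 11 other subunits of the 20S core, 6 rose and none fell, *Psma5* (log2 0.36, SE 0.08, adjusted p = 0.00201), *Psma3* (0.29, 0.06, 0.00265), *Psma2* (0.26, 0.06, 0.00431) and *Psma7* (0.23, 0.06, 0.00992) with the smallest p. Their median was 0.21, against 0.02 over all genes. The number was 5 without the 5 mice high in lymph node stroma genes, 2 of 11 without the 8 mice high in B cell genes and 7 with the B and T cell level as a covariate. None of the 3 constitutive catalytic subunits passed with edgeR or DESeq2, and none had an unadjusted p below 0.05 (log2 0.09 for *Psmb5*, 0.01 for *Psmb6*, 0.15 for *Psmb7*). None of the 3 subunits of the activator PA28, which opens the core to peptides, passed with edgeR, *Psme1* being nearest (log2 0.71, adjusted p = 0.0513). Of these 3, 2 had an unadjusted p below 0.05 and 1 passed with DESeq2 (*Psme1*). With edgeR *Psme1* and *Psme2* passed without the 5 mice high in lymph node stroma genes and with the covariate, and *Psme1* without the 8 mice high in B cell genes.

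Among 12 tested of 19 other class I and class I-like heavy chains, *Fcgrt*, which encodes the neonatal Fc receptor and pairs with β2-microglobulin, rose (log2 0.89, SE 0.25, adjusted p = 0.0178). The other 11 lay between -0.32 (*H2-Q2*) and 0.99 (*H2-T24*). *Fcgrt* also passed without the 5 and without the 8 mice. *H2-T22* (-0.16, adjusted p = 0.133) passed as lower in both of these sets of mice. Of 10 genes of the loading complex, peptide editing and trimming, 2 rose, and both encode aminopeptidases that trim peptides, *Erap1* (0.43, SE 0.13, adjusted p = 0.0197) and *Lnpep* (0.23, SE 0.06, adjusted p = 0.0121). *Erap1* did not pass without the 5 mice high in lymph node stroma genes, and neither did so without the 8 mice high in B cell genes, where *Thop1*, another peptidase, was the gene of this list that passed. *Calr*, *Pdia3* and *Tapbpl* stood at 0.33, 0.29 and 0.07 and did not pass.

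Of 16 transcription factors of class I genes, *Creb1* rose (log2 0.28, SE 0.07, adjusted p = 0.0104), and none of the 16 passed without the 5 or without the 8 mice. *Nlrc5*, the activator of class I promoters, stood at 0.44 (SE 0.70, adjusted p = 0.704) and *Irf1* at 0.50 (adjusted p = 0.255). Of 7 interferon receptors and kinases, *Ifngr1* rose (0.62, SE 0.18, adjusted p = 0.0186). Of 21 tested interferon-induced genes outside class I, 7 rose and none fell, and all 21 had a positive value (median 0.87). The smallest p-values were those of *Bst2* (0.74, SE 0.12, adjusted p = 0.000169), which encodes tetherin, *Rsad2* (1.29, SE 0.24, 0.000778), which encodes viperin, *Ifit2* (0.73, SE 0.22, 0.0225) and *Usp18* (0.97, SE 0.30, 0.0250). Without the 5 mice high in lymph node stroma genes 2 of 18 tested passed, and without the 8 mice high in B cell genes 2 of 17. In both cases these were *Bst2* and *Rsad2*. The number was 9 of 22 with the B and T cell level as a covariate and 9 of 23 with DESeq2. At day 14 against baseline none of the 83 genes of these lists tested with edgeR or the 89 tested with DESeq2 passed. With edgeR 9 had an unadjusted p below 0.05. Between day 14 and day 7, 1 of the 83 passed with edgeR, where 1.22% of all genes did, and 1 of the 89 with DESeq2. With edgeR this was *Bst2*, lower at day 14 (adjusted p = 0.0297), and all 21 tested interferon-induced genes had a negative value.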

How the data were processed

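The deposited files hold whole-number counts of fragments per gene symbol, 1 file per mouse. Per the labels and the study's methods, total RNA was depleted of ribosomal RNA and made into stranded paired-end libraries. The authors trimmed the reads, aligned them to mm10 with STAR 2.5.2a and counted the fragments that mapped uniquely with featureCounts. The strand setting and the annotation used for counting are not given in the sources used here. The authors' counts were used as deposited. Total counts per mouse were 7059890 to 9567446, and no pair of libraries agreed within sampling noise.

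TMM factors scaled the libraries. The quasi-likelihood test of edgeR 4.0.16 (filterByExpr, glmQLFit with robust = TRUE, glmQLFTest; limma 3.58.1 under R 4.3.3) was run once on the 23 mice together, adjusting for sex. P-values were adjusted over the 12500 genes tested by the Benjamini-Hochberg method. A second fit with a coefficient for each sex and time point (12933 genes) gave the interaction. The threshold was an adjusted p of 0.05, and DEGs also reached a fold change of 1.5. Each SE was obtained from the test (size of the log2 fold change over the root of F). CPM were scaled by TMM, and log2 CPM used a prior count of 2. The procedure was tested on simulated data. Count ratios (0.5 added to each count) were compared with exact two-sided permutation tests, adjusted over 6 tests. The 6 pairs of members were correlated after group means were removed. The length of a gene is that of all its exons in GENCODE vM21. Promoter windows came from RefSeq (GRCm38), and the NF-kB pattern was chosen after the sequences were seen. Tables, permutations and plots were made in Python 3.11.15 (scipy 1.17.1, pandas 2.3.3, numpy 2.4.6, matplotlib 3.10.9).

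All 10 members are named. In every other list and comparison the members past the threshold were counted, and up to 4 with the smallest p were named. A gene that these rules would name is not reported here. The members were given beforehand, and the lists and tests were chosen with earlier results of these data known. Alternatives were DESeq2 1.42.0, 3 other scalings, 2 other filters on low counts, only the mice compared, no sex covariate, each mouse left out in turn and, for the ratios, each sex alone and no pseudocount. Added after seeing the data were 2 sets of mice without those high in lymphoid genes and a lymphoid covariate.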

Additional observations from a re-analysis of the deposited data

How the results depend on the processing

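No paired analysis was possible because each mouse has a number of its own and no number is shared between groups. The count of members past the threshold at day 7 (1) became 9 with total counts, 2 with DESeq2, 0 in a fit of only the mice compared, 3 without the mice high in B cell genes and 5 with the B and T cell level as a covariate, and 0 to 4 when 1 mouse was left out. It was 4 without baseline mouse 5. The count of DEGs (1) became 8, 2, 0, 1 and 2 in the same order, and 0 to 4 when 1 mouse was left out. With total counts the median of all genes moved to 0.48 at day 7. At day 14, 1 member passed with total counts (*Psmb10*) and otherwise 0, and between day 14 and day 7 there were 2 with total counts and 3 with the covariate. No alternative gave a call for sex or its interaction.

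Signs turned only for values that had not passed in the fit of all mice. With total counts these were *Psmb10* at day 7 (0.37) and *Tap2* (0.18) and *Psmb9* (0.014) at day 14. *Tap2* at day 7 was -0.026 without the mice high in B cell genes. Without the mice high in lymph node stroma genes, *H2-T23* at day 14 was -0.23, and the log2 ratios at day 14 were -0.073 (*Psmb8*/*Psmb5*) and -0.24 (*Psmb9*/*Psmb6*). Leaving out 1 mouse, log2 fold changes at day 14 ranged from -0.023 to 0.30 (*H2-K1*), -0.0017 to 0.26 (*H2-D1*), -0.20 to 0.44 (*H2-T23*), -0.21 to 0.48 (*Tap1*), -0.17 to 0.13 (*Tap2*), -0.069 to 0.19 (*Tapbp*), -0.15 to 0.90 (*Psmb8*) and -0.67 to 0.55 (*Psmb9*). The ratios at day 14 ranged from -0.12 to 0.51 (*Psmb8*/*Psmb5*), -0.31 to 0.33 (*Psmb9*/*Psmb6*) and -0.041 to 0.057 (*Psmb10*/*Psmb7*), and *Psmb10*/*Psmb7* at day 7 from -0.30 to -0.20. In females alone the ratios at day 14 were -0.20 (*Psmb9*/*Psmb6*) and -0.083 (*Psmb10*/*Psmb7*). The relation of *Psmb8* and *Psmb10* was -0.083 with total counts. For other changes the cause was not tested. The filter of 10 counts in every mouse removed *Psmb8* and *Psmb9*. With 7 or 8 mice a group and an SD near 1 on the log2 scale in *Psmb8* and *Psmb9*, small differences in these genes were not detectable.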

Other observations

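The other cell type lists gave the setting of the gland at day 7, where 8.5% of all genes passed as higher and 9.49% as lower. Of 10 acinar genes, 9 fell (median log2 fold change -0.73), among them *Pnlip* (-0.88, adjusted p = 6.80e-08, edgeR), the pancreatic lipase, and *Sycn* (-1.15, adjusted p = 2.36e-07). Of 8 fibroblast genes, 6 rose (median 0.81), *Pdgfra* (0.87, adjusted p = 3.87e-07) and *Lum* (1.41, adjusted p = 1.51e-06) with the smallest p. Of 6 endothelial genes, 3 fell, *Plvap* (-0.53, adjusted p = 0.000819) first. Of 7 ductal genes, *Spp1* (0.71, adjusted p = 0.000364) and *Krt7* (0.74, adjusted p = 0.0449) rose, and of 6 islet genes *Iapp*, *Ins1* and *Ins2* rose (0.97 to 1.11). Of 5 tested dendritic cell genes, *Zbtb46* fell (-0.60, adjusted p = 0.000701). None of 4 tested adipocyte genes passed with edgeR or DESeq2, and none had an unadjusted p below 0.05. Of 6 housekeeping genes, *Hprt* (0.22, adjusted p = 0.0219) rose and *Rplp0* (-0.31, adjusted p = 0.000813) fell. No neutrophil gene had enough counts to be tested.

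For each member and ratio, the highest and lowest mouse of each time point were compared with Dixon's 95% critical value. None of the 39 groups held a mouse beyond it, where chance gives about 1 in 20 for independent groups. The members were measured in the same mice, so these groups are not independent. The check takes 1 mouse at a time, and 2 high mice in a group can hide each other. For *Psmb8* at baseline, for example, 2 mice were high (5.31 and 10.6 CPM). The lack of a flag therefore does not show that no mouse lay apart.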
